A study of Arabidopsis thaliana with 2 samples.

Results

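ATG8 proteins are small ubiquitin-like proteins that are joined to the lipid phosphatidylethanolamine on the membrane of the forming autophagosome, and ATG3 is the E2-like enzyme that carries out the last step of that conjugation. The genes described here are ATG3 and the ATG8 genes ATG8B, ATG8C, ATG8D, ATG8E, ATG8F, ATG8G and ATG8H of Arabidopsis thaliana. They were chosen by name, as the probe sets that the platform annotation assigns to a single gene carrying one of those symbols. This gave 8 genes with 1 probe set each, out of 13356 genes that a probe set of the Affymetrix ATH1 GeneChip names alone in that annotation. A probe set is a group of short oligonucleotides that together report on a transcript, and 22746 of them were analysed besides the controls.

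Stem RNA of plants overexpressing AtC3H14, a CCCH zinc finger protein gene, under the viral 35S promoter (genotype 35S::AtC3H14), which drives expression in most tissues of the plant, was compared with stem RNA of wild-type plants. Both genotypes were in the Columbia (Col-0) background, were grown on soil at 23 °C under days of 16 h light and 8 h dark, and were harvested at 30 days of age, the sampled stem running from the base to internode 3. Each genotype was measured on 1 array, so no value below has a replicate error, no test was possible and differences are described by size. The labels do not say how many plants, or how many transgenic lines, went into each sample, and any unlabelled difference in growth stage or handling cannot be told apart from genotype.

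Autophagy delivers cytoplasm and organelles to the vacuole for breakdown. ATG8 is made as a precursor that the protease ATG4 trims, ATG7 activates it and passes it to ATG3, and the ATG12-ATG5-ATG16 complex directs its transfer to the lipid. Membrane-bound ATG8 then recruits cargo receptors such as NBR1. In Arabidopsis ATG8 is a gene family, several members of which are known to respond to carbon or nitrogen starvation and to senescence, and autophagy also takes part in the death and clearing of differentiating xylem cells.

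The values are MAS5 signals on a linear scale, scaled so that the trimmed mean of each array was 500.04. A signal floor of 104.0, the percentile 40 of all non-control signals, was set under the ratios: a gene below it on 1 array has only a bound, written "at least", and a gene below it on both has no ratio. The median log2 ratio of 35S::AtC3H14 over wild type was 0.04 (SD 0.64) over the 12826 probe sets that reached the floor on both arrays. The AtC3H14 probe set (AT1G66810) had a signal of 8655 in 35S::AtC3H14 stems and 244 in wild-type stems, 35.5-fold higher, which is the direction of the label. The 18 spiked hybridization-control probe sets were all brighter on the 35S::AtC3H14 array, by 1.44-fold on average. Scaling the arrays to them lowers the log2 ratio of ATG3 and each ATG8 gene by 0.52, and bounds shift less, so every fold here is relative to the average of each array.

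All 8 genes lay well above the floor on both arrays, the lowest signal being 4.80 times the floor. Every one of them had a lower signal in 35S::AtC3H14 stems than in wild-type stems, although ATG8D differed so little that quantile normalization placed it at a log2 ratio of 0.0025. Only ATG8E passed 2-fold as deposited. Of the 12826 probe sets, 46.7% had a ratio below 1 and 5.61% were at least 2-fold lower, so 1 of 8 members past 2-fold stands beside a background of 5.61%, or 5.78% when the probe sets above the floor on at least 1 array are counted with their bounds. None of the 8 was 2-fold higher, against 4.51% of all probe sets.

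ATG8E (AT2G45170), a family member widely used as a fluorescent marker of autophagosomes, had a signal of 611 in 35S::AtC3H14 stems and 1815 in wild-type stems. It was 2.97-fold lower, a log2 ratio of -1.57. Of the 12826 probe sets, 189 (1.47%) had a ratio at or below that of ATG8E. This place depends on how dim probe sets are handled: 5.24% of ratios were below that of ATG8E without a floor, over all 22746 probe sets, and 0.892% with a pseudocount of 100. By rank among all non-control probe sets of its own array, a reading that needs no scaling between arrays, ATG8E stood at percentile 74.9 in 35S::AtC3H14 and at percentile 91.6 in wild type. The next largest shift among the members was that of ATG8G, -8.93 percentile points.

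ATG8G (AT3G60640) and ATG8B (AT4G04620) came next and were the other members past 1.5-fold. ATG8G had a signal of 499 in 35S::AtC3H14 stems and 774 in wild-type stems, a log2 ratio of -0.63. ATG8B had 650 in 35S::AtC3H14 stems and 987 in wild-type stems, a log2 ratio of -0.60. Together with ATG8E, 3 of 8 members were at least 1.5-fold lower, where 14.1% of all probe sets were.

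ATG8H (AT3G06420) belongs to the branch of the family whose proteins end at the glycine that is joined to the lipid and so need no trimming by ATG4. Its signal was 754 in 35S::AtC3H14 stems and 1037 in wild-type stems, a log2 ratio of -0.46. ATG8C (AT1G62040) had a signal of 1552 in 35S::AtC3H14 stems and 2062 in wild-type stems, a log2 ratio of -0.41. Both were under 1.5-fold.

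ATG8F (AT4G16520) and ATG8D (AT2G05630) differed least. ATG8F had a signal of 4870 in 35S::AtC3H14 stems and 5640 in wild-type stems, a log2 ratio of -0.21, and stood at percentile 97.8 on the 35S::AtC3H14 array and percentile 98.2 on the wild-type array. ATG8D had 869 in 35S::AtC3H14 stems and 895 in wild-type stems, a log2 ratio of -0.04. Its place among the probe sets of each array was the same to a decimal, at percentile 81.9 on both.

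ATG3 (AT5G61500), the conjugating enzyme on which the family depends, had a signal of 1368 in 35S::AtC3H14 stems and 1781 in wild-type stems. Its log2 ratio of -0.38 lay within the range of the ATG8 genes and was under 1.5-fold. In a bulk stem sample, fewer cells expressing a gene and less of its RNA per cell cannot be told apart, and this holds for each gene here.

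**Figure D1:**
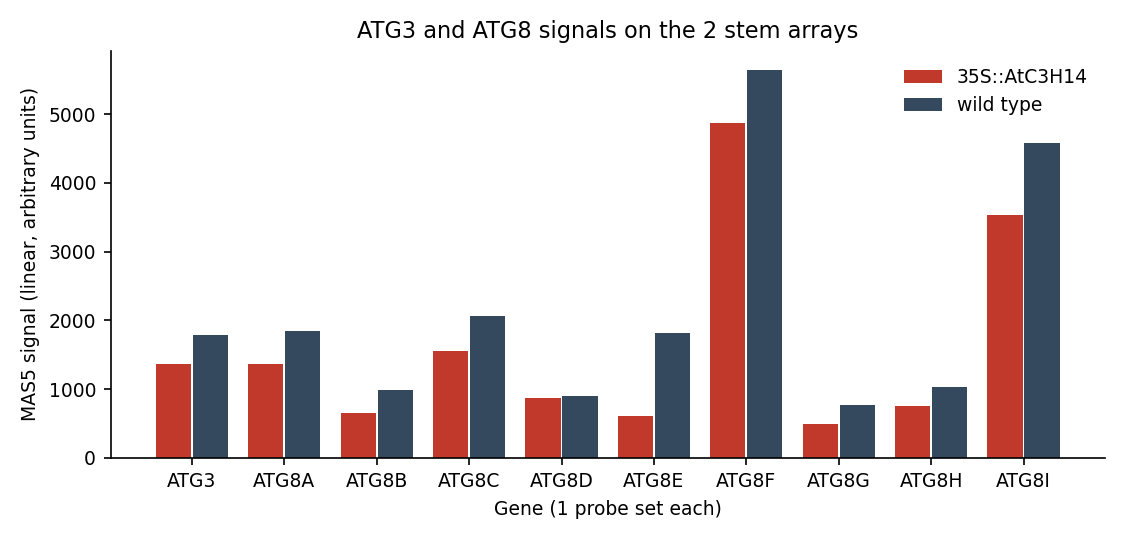
MAS5 signal (vertical axis, linear, arbitrary units) of ATG3 and the ATG8 genes, 1 probe set each, in 35S::AtC3H14 stems (left bar of each pair) and wild-type stems (right bar), 1 array each and so without error bars. The left bar is the shorter in all 10 pairs, by most in ATG8E (611 and 1815) and by least in ATG8D (869 and 895). Heights of different probe sets are not on a common scale of transcript amount.

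The rest of the ATG8 family was measured as well. The annotation writes ATG8A (AT4G21980) as APG8A and ATG8I (AT3G15580) as APG8H, and so they fell outside the choice by symbol. ATG8A had a signal of 1371 in 35S::AtC3H14 stems and 1846 in wild-type stems, a log2 ratio of -0.43. ATG8I, of the same branch as ATG8H and likewise ending at the glycine, had 3526 in 35S::AtC3H14 stems and 4582 in wild-type stems, a log2 ratio of -0.38. All 9 ATG8 genes thus had a lower signal in 35S::AtC3H14 stems, with ATG8D above 0 under quantile normalization as given above. Their median log2 ratio was -0.43, and that of the 8 members was -0.44 (1.35-fold), beside a median of 0.04 over all probe sets above the floor on both arrays. The members were named with earlier results of these data known, so that their common direction is a description of these arrays.

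A spread that the arrays offer without replicates is that of log2 ratios among probe sets of 1 gene. It pooled to an SD of 0.35 on the log2 scale (59 genes with 121 probe sets). Nothing of the variation between plants, RNA extractions or arrays is in it. ATG8E stood 4.46 of these SDs from 0, ATG8G 1.80 and ATG8B 1.71. ATG8H, ATG8A, ATG8C, ATG3 and ATG8I stood between 1.31 and 1.07 SDs from 0, and ATG8F (0.60) and ATG8D (0.12) lay within 1 SD. The SD of log2 ratios over the 12826 probe sets above the floor on both arrays was larger, at 0.64. Of these genes, only ATG8E lay further than that from 0.

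From lowest to highest, the order of the log2 ratios was ATG8E, ATG8G, ATG8B, ATG8H, ATG8A, ATG8C, ATG3, ATG8I, ATG8F and ATG8D. The step from ATG8E to ATG8G was 0.94, the largest in this order. For comparison, the spread between probe sets of 1 gene gives 0.50 as the SD of a difference between a pair of probe sets. As that spread leaves out plants, extractions and arrays, whether the step exceeds their variation is not known. The 7 genes from ATG8G to ATG8I spanned 0.25, less than that SD, and their order cannot be read. The steps from ATG8I to ATG8F and from ATG8F to ATG8D were 0.17 each, also under it. The ATG8 genes are close relatives in sequence, and shared signal between their probe sets was not tested. None of the 8 probe sets carries the suffix _s_at or _x_at, by which Affymetrix marks sets whose probes match several transcripts.

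**Figure D2:**
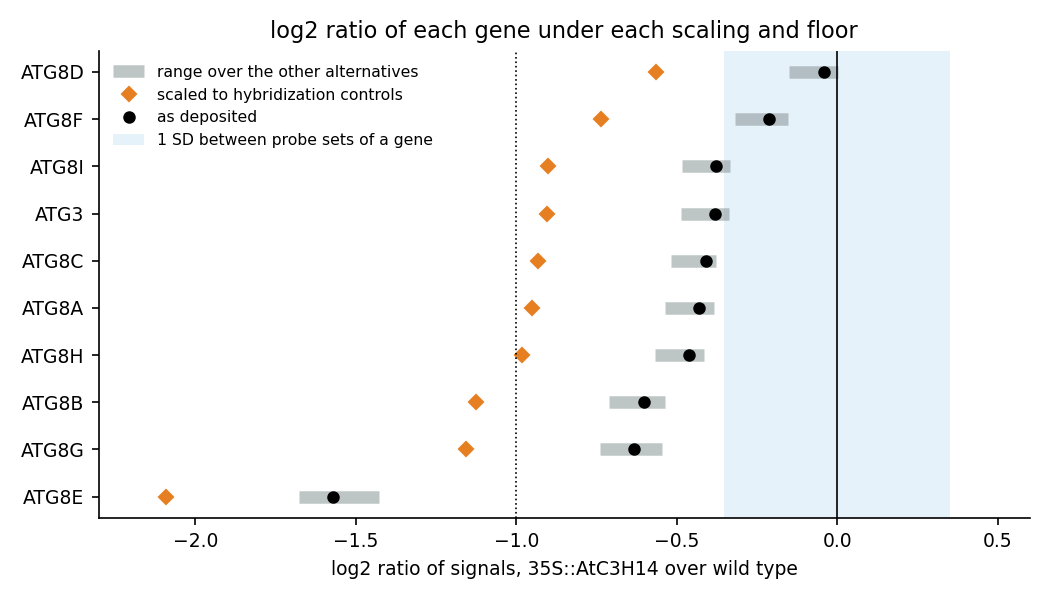
log2 ratio of signals, 35S::AtC3H14 over wild type (horizontal axis), for ATG3 and the 9 ATG8 genes, as deposited (circles), with arrays scaled to the hybridization controls (diamonds) and over the other alternatives (grey bars). The shaded band is 1 SD (0.35) between probe sets of 1 gene, drawn to both sides of 0, the dotted line is 2-fold lower, and ATG8E is the gene past that line in all the settings drawn.

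Without ATG8E the remaining 7 members had a median log2 ratio of -0.41, with an SD of 0.21 between genes against 0.46 with it. The median of the members therefore did not rest on ATG8E, whereas the count past 2-fold did. With the hybridization-control scaling, ATG8B (-1.13) and ATG8G (-1.16) passed 2-fold as well, and ATG8E had a log2 ratio of -2.09. The share of all probe sets at least 2-fold lower was then 16.6%. The median of the members minus that of all probe sets above the floor on at least 1 array was -0.52, and -0.49 as deposited. The scaling moves members and all other probe sets alike, so this difference could change only through the floor.

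**Figure D3:**
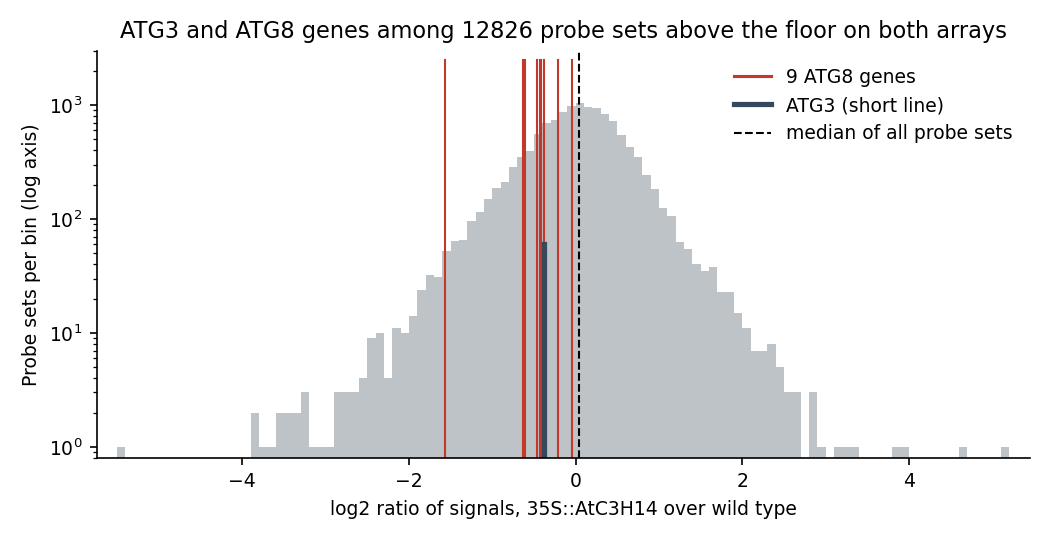
Number of probe sets (vertical axis, log scale) by log2 ratio of signals, 35S::AtC3H14 over wild type (horizontal axis), for the 12826 probe sets that reached the floor on both arrays. Long lines mark the 9 ATG8 genes, the short thick line ATG3 and the dashed line the median of all probe sets (0.04). The 10 genes lie left of that median, 9 of them between -0.63 and -0.04 and ATG8E apart from them at -1.57.

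The other genes of the pathway were read from a list of 31 entries beyond the members, of which 9 had a probe set naming the gene alone and 8 of these were measured. None of the 8 passed 2-fold, where 5.61% of the 12826 probe sets were at least 2-fold lower and 4.51% at least 2-fold higher. Of the 8, 6 had a ratio below 1 and 2 above it, and their median log2 ratio was -0.20. ATG8A and ATG8I are among these 8. Without them 4 of 6 had a ratio below 1, where 46.7% of all probe sets did, and the median log2 ratio was -0.12. Besides ATG8A and ATG8I, the gene table gives an autophagy name to ATG101 (AT5G66930), a subunit of the ATG1-ATG13 kinase complex that starts autophagosome formation. ATG101 had a signal of 494 in 35S::AtC3H14 stems and 633 in wild-type stems, a log2 ratio of -0.36.

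The other entries are known in the table by locus code alone, and no role is given to them here. AT3G61960 was the highest, with 747 in 35S::AtC3H14 stems and 483 in wild-type stems, a log2 ratio of 0.63, which is 1.55-fold and opposite in direction to the ATG8 genes. AT5G50230 had a log2 ratio of 0.18, AT3G59950 of -0.05 and AT3G53930 of -0.18. With the hybridization-control scaling AT3G61960 stood at 0.11 and AT5G50230 at -0.35. AT2G37840 was read by a pair of probe sets, with log2 ratios of -0.05 and -0.40, and AT3G18770 did not reach the floor on either array. The steps before and beside ATG8 conjugation (ATG7, ATG5, ATG10, ATG12, ATG6, ATG9 and the ATG18 genes) were not analysed here. In the annotation used, no probe set names 1 of these genes alone. That annotation gives no gene for 8730 of the 22746 probe sets, so whether the array reads these genes is not known here.

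Of 9 entries for receptors and regulators, 2 were measured. RAPTOR1 (AT3G08850), the partner of the TOR kinase that holds autophagy back when nutrients are plentiful, had a signal of 464 in 35S::AtC3H14 stems and 673 in wild-type stems, a log2 ratio of -0.54, under 2-fold as deposited and -1.06 with the hybridization-control scaling. The locus AT4G34660 had a log2 ratio of 0.05, or -0.48 with that scaling. The receptor NBR1 and the kinases TOR, KIN10 and KIN11 were not analysed here.

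**Figure D4:**
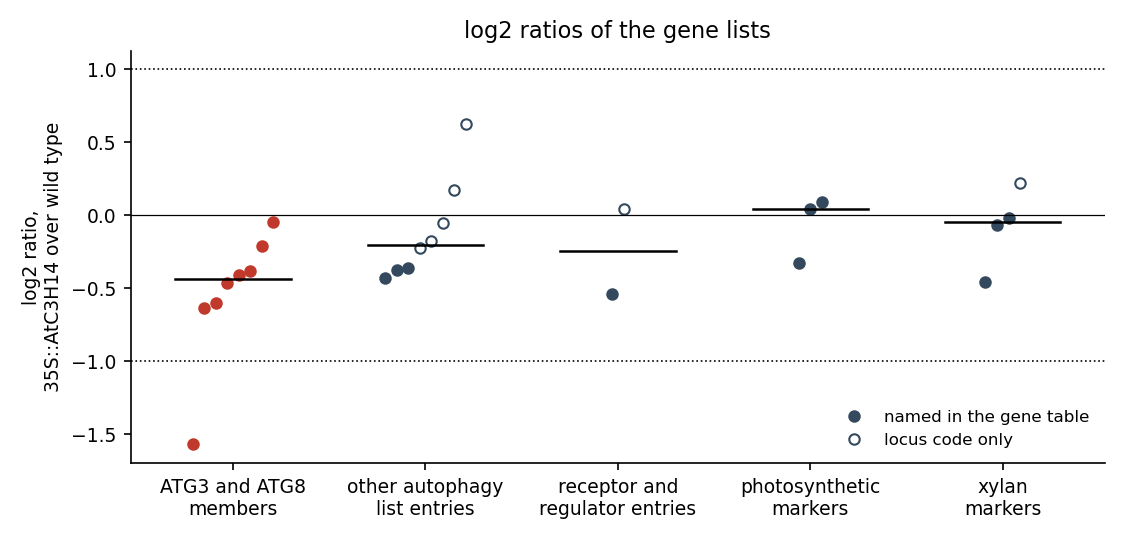
log2 ratio of signals, 35S::AtC3H14 over wild type (vertical axis), for measured genes above the floor on both arrays in 5 lists. Each point is a gene and each bar the median of its list. Open points are loci given here by code, of which AT5G61840 does carry a symbol (GUT1) in the gene table. Dotted lines mark 2-fold, which ATG8E passes; the member median is -0.44 and that of the other autophagy entries -0.20.

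Genes of starvation, senescence and tissue were read beside these values. Of 12 starvation and senescence genes, 1 was measured. SWEET15 (also SAG29), a sugar transporter of senescing leaves, was below the floor in 35S::AtC3H14 stems (91.7) and at 185 in wild-type stems, at least 1.78-fold lower. With the hybridization-control scaling its bound was a log2 ratio of -1.11 or lower. Without a floor its log2 ratio was -1.01, also past 2-fold, and with the floor at percentile 60 it had none. The 3 photosynthetic markers measured, LHCB4.1, RCA and PRK, had log2 ratios of -0.32, 0.04 and 0.09 and a summed signal of 36622 in 35S::AtC3H14 stems and 38276 in wild-type stems. Of 9 xylem and secondary wall entries 4 were measured, IRX15, IRX15-L and IRX10 of xylan synthesis and the locus AT5G61840. They had log2 ratios from -0.45 to 0.22 and a summed signal of 10119 in 35S::AtC3H14 stems and 10864 in wild-type stems. In these sums the brightest probe sets weigh most, and signals of different probe sets are not on a common scale of transcript amount.

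The single epidermal marker measured, WSD1, was at least 4.48-fold higher, with 466 in 35S::AtC3H14 stems and 11.3 in wild-type stems. The single root marker measured, PYK10, was at least 5.90-fold lower, with 56.4 in 35S::AtC3H14 stems and 614 in wild-type stems. With the floor at percentile 60 both still had only bounds, a log2 ratio of at least 0.59 for WSD1 and of -0.99 or lower for PYK10. These bounds fall short of 2-fold and cannot show whether either gene passed it. The single locus measured of the floral list, AT5G07230, did not reach the floor on either array, and none of the 3 phloem entries was analysed here. The control probe sets for actin had log2 ratios from -0.09 to 0.26, those for ubiquitin from -0.70 to -0.07 and those for GAPDH from 0.62 to 1.10, each of them 0.52 lower with the hybridization-control scaling, as are the photosynthetic and xylem values above. The part of tissue makeup and of RNA amount in the ATG8 values was not tested.

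The genes most like ATG8F, the ATG8 member with the brightest probe set, were sought by distance between pairs of log2 signals over the 2 arrays, among 1578 probe sets whose only gene has a symbol. The 3 nearest were the plastid genes psbE and clpP and the nuclear gene PSB27. psbE had a signal of 5184 in 35S::AtC3H14 stems and 5908 in wild-type stems, at a distance of 0.11. clpP was also at 0.11 and PSB27 at 0.13. With 2 arrays such likeness means only a similar brightness and a similar ratio.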

How the data were processed

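The deposited table holds 1 intensity value (signal) per probe set and array on a linear scale, which, per the submitters' processing notes, the authors made with MAS5 (its version is not given). Per the labels' protocols, RNA was extracted with Trizol and 10 ug of it went into biotinylated cRNA. No detection calls or scans were used here. The 64 control probe sets were set apart. Gene names came from the platform annotation, and loci and synonyms from the TAIR10.1 gene table. Coordinates are left out because the sources used here do not state which build the array was designed on.

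Ratios are 35S::AtC3H14 over wild type, in Python 3.11.15 with numpy 2.4.6 and pandas 2.3.3. A signal below the floor on 1 array gave a bound against the floor, and below it on both no ratio. A gene with several probe sets took their mean log2 ratio. With 1 array per group there was no test, and the number of arrays limits the precision. Steps were tested on simulated data.

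Members, lists and alternatives were chosen with earlier results of these data known. Named were all members, AtC3H14, each list gene measured on at least 1 array and the 3 genes nearest the brightest ATG8 member. Loci below the floor were named besides, after their values were seen. Alternatives were median centring, quantile normalization, loess (span 0.4), hybridization-control scaling, no floor, a floor at the percentile 60, a pseudocount of 100, calls at 1.5-fold and 3-fold, the brightest probe set, and dropping probe sets with the suffix _s_at or _x_at.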

Additional observations from a re-analysis of the deposited data

How the results depend on the processing

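No paired analysis was possible because each genotype had 1 array, and for the same reason leaving out an array was not possible. Changes were judged against the SD of 0.35 between probe sets. Of 9 alternatives, 4 could not move the members' log2 ratios: both floor settings, since all members lay above each floor, and the choices among probe sets, since each member has 1 and none has the suffix. Over the other 5, 32 of 40 log2 ratios stayed within the SD and 39 below 0, the exception being ATG8D with quantile normalization. The pseudocount cannot change the sign of a ratio. Median centring lowers every member by the same amount, less than the SD, and the hybridization-control scaling also lowers each. Staying below 0 was thus fixed under those settings, and only quantile normalization and loess could have changed it. Among probe sets above the floor on both arrays, the share below 0 was 54.8% with median centring and 48.2% with quantile normalization. It was 48.6% with loess and 81.3% with the hybridization-control scaling. With the pseudocount, which has no floor, the share was 43.7% of all 22746 probe sets. The 8 that moved were those with the hybridization-control scaling, which by construction lowers each by 0.52; the member median was then -0.96, with 3 members at least 2-fold lower and, over all probe sets, 281 higher and 2410 lower. Under the other alternatives the median stayed between -0.54 and -0.40. At 1.5-fold, 3 members were lower, and of 14469 probe sets 2256 were higher and 2033 (14.1%) lower. At 3-fold, 0 members were lower, and of the same probe sets 234 were higher and 242 (1.67%) lower. Counted at 2-fold without a floor, 3428 of 22746 probe sets were higher and 2409 lower. With the floor at the percentile 60, 364 of 9986 were higher and 534 lower, also at 2-fold.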
